A study of Mus musculus with 6 samples.

Results

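The genes described here make cholesterol, sense it, carry it and remove it from the liver cell. They were chosen by name: rows of the liver count table whose gene symbol is one of 31 listed symbols were taken, and all 31 were found among 54532 genes. Bulk RNA sequencing gave 6 libraries from livers of male mice, 3 labelled Trem2-deficient (KO, replicates 4, 5 and 6) and 3 labelled wild-type littermates (WT, replicates 1, 2 and 3). Both groups started a high-fat diet at 8 weeks of age and were kept on it for 8 weeks, so that no library came from lean mice. Whether each library is a separate mouse is not stated. The Trem2 allele, and whether it is missing in all cells, are not given in the sources used here, nor is the strain. RNA came from whole frozen liver, in which fewer cells of a type and less RNA per cell cannot be told apart.

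Hepatocytes make cholesterol from acetyl-CoA through mevalonate, squalene and lanosterol. When sterol in the endoplasmic reticulum is low, the escort protein SCAP carries the membrane-bound transcription factor SREBP2 to the Golgi, where it is cut free to switch on the synthesis enzymes. When sterol is high, INSIG proteins hold SCAP back. Oxidised sterols activate the nuclear receptor LXR, which raises transporters that remove cholesterol to high-density lipoprotein (HDL) or bile. The 2 arms are known to move in opposite directions when cell cholesterol alone changes. For that reason the 21 members known as SREBP2 targets (18 enzymes with Srebf2, Insig1 and Stard4) were set against the 5 members of the LXR and efflux arm (Nr1h3, Abca1, Abcg5, Abcg8 and Mylip).

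Promoter sequences of 4 members, taken from both arms, are shown as a description, and their bearing on the fitted changes was not tested. They are RefSeq sequences (GRCm38.p6, the assembly of mm10), each running from 250 bases before to 50 bases after a transcription start, 5′ to 3′ on the gene's strand. Capitals mark matches on either strand to the core of the sterol regulatory element bound by SREBP2 (TCACNCCAC), to the NF-Y box (CCAAT) or to the E-box (CACGTG).
Hmgcs1, chr13:119690101-119690400, plus strand: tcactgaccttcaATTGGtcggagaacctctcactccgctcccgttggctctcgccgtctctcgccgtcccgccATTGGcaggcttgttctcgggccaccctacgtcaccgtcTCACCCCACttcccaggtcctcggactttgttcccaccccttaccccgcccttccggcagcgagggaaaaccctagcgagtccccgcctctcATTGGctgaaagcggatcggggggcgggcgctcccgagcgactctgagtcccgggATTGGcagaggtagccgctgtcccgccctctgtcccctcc
Insig1, chr5:28071162-28071461, plus strand: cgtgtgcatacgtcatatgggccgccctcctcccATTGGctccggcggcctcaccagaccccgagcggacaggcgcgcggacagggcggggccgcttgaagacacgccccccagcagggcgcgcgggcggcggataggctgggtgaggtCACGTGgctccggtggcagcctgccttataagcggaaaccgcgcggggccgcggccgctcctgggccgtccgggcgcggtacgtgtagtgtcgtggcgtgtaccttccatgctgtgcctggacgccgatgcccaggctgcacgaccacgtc
Abca1, chr4:53159846-53160145, minus strand: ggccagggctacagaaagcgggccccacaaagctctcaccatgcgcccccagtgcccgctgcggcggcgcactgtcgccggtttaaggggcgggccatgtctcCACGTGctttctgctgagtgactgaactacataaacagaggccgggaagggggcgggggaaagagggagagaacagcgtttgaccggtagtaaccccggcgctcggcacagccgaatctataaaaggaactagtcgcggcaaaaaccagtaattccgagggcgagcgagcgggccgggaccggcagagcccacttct
Abcg5, chr17:84682962-84683261, minus strand: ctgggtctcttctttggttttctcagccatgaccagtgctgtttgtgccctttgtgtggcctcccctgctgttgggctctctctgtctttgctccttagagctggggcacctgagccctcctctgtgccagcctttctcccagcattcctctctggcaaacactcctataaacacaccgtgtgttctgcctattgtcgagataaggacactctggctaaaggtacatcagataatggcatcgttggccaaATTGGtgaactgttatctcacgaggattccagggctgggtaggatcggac

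Of the 31 members, 25 had such a window. The sterol element core stood in 1 of the 20 windows of 17 SREBP2-target genes, that of Hmgcs1, starting 137 bases before the transcription start, and in 1.24% of all 32851 promoter windows. The NF-Y box, the site of a factor known to act beside SREBP2, stood in 16 of these 20 windows (80%), against 37.4% of all windows. The Sp1 box (GGGCGG) stood in 17 of 20 (85%), against 35.7% of all. None of the 25 members' windows matched the pattern used for DR4, the repeat that LXR binds, and 0.231% of all windows did. That pattern required A or G as the first base of each repeat unit. The Abca1 window shown above holds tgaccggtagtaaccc, which, read on the other strand, misses it by that base in 1 unit. This count therefore does not show that Abca1 lacks a DR4 element. Abcg5 and Abcg8 are transcribed away from each other, and their near starts lie 110 bases apart, so that 209 bases of their windows are the same. A match to these letters is a description of the sequence, and its absence says nothing about binding to near matches or elsewhere.

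The 6 libraries held 11591021 to 20399361 counts, and the values below are CPM, counts scaled to library size and composition (TMM). Fold changes are KO over WT on the log2 scale with their standard error (SE), from edgeR's quasi-likelihood test over all 13693 genes that passed the count filter, as all 31 members did. Trem2, the targeted gene, was sparse, at 9, 6 and 5 counts for KO and 7, 26 and 26 counts for WT (log2 fold change −1.30, SE 0.68, edgeR adjusted p = 0.633). The library labelled WT replicate 1 lay within the range of the KO-labelled libraries, so that this gene does not tell KO from WT in every library. The title of that library alone carries a suffix, whose meaning is not given. Directions below therefore rest on the labels alone. Mitochondrially encoded genes took 28.0, 9.08 and 19.8% of counts in KO replicates 4, 5 and 6, against 8.16, 12.7 and 10.2% in WT replicates 1, 2 and 3. All 8 hepatocyte markers were well expressed, with a summed level of 77055 to 82124 CPM in KO-labelled and 75020.4 to 108043 CPM in WT-labelled libraries, and 7 of the 8 were fitted lower (median −0.40). The 6 Kupffer cell markers summed to 104 to 177 CPM in KO-labelled and 67.9 to 97.6 CPM in WT-labelled libraries, and the 5 sinusoidal endothelial markers to 117 to 143 CPM in KO-labelled and 90.5 to 99.2 CPM in WT-labelled libraries. The 5 monocyte and macrophage markers summed to 33.8 to 50.1 CPM in KO-labelled and 18.1 to 33.6 CPM in WT-labelled libraries. The 6 stellate cell markers summed to 136 to 207 CPM in KO-labelled and 139 to 164 CPM in WT-labelled libraries. Of these 6, 3 were fitted lower and 3 higher, among them Des at 1.91 (SE 0.48, edgeR adjusted p = 0.4, called higher by DESeq2). The summed biliary and lymphocyte markers overlapped between the groups. The 4 adipocyte markers summed to 15.9 CPM in KO replicate 5 and to at most 0.636 CPM in the other 5 libraries. The part of these differences in the results below was not tested.

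No member passed the threshold of an adjusted p of 0.05 in edgeR, where 2 of 13693 genes (0.0146%) did. Among the 31 members 22 were fitted lower in KO-labelled libraries, against 50.9% of all tested genes, with a median log2 fold change of −0.17 against −0.01 for all genes. The count of 22 became 19 without KO replicate 6, where 51.6% of all genes were fitted lower. It was 18 without the pair of KO replicate 4 and WT replicate 1, where 48% of all genes were. It rose to 25 without KO replicate 5 and to 23 without WT replicate 1, where 50.9% and 49.7% of all genes were. At an unadjusted p under 0.05, 4 members (12.9%) were lower, where 3.21% of all genes were, and 2 members (6.45%) were higher, where 5.37% of all genes were. The 4 lower ones were Abca1, Stard4, Insig1 and Msmo1, and the 2 higher ones were Hmgcs1 and Insig2. In 4 members (12.9%) all KO-labelled values lay below all WT-labelled ones, as in 5.73% of all genes, and in 1 member (3.23%) all lay above, as in 8.12% of all genes. These 5 members were Insig1, Stard4, Sqle and Abca1 on the low side and Insig2 on the high side. The count of 5 became 16 without WT replicate 2 and 13 without KO replicate 5, where 34.4% and 40.2% of all genes did not overlap, against 51.6% and 41.9% of the members. With all libraries the shares were 16.1% of the members and 13.9% of all genes. DESeq2 called 1 member, Abca1, as lower (0.468% of all genes were called lower) and 0 as higher (0.818% of all genes).

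**Figure D1:**
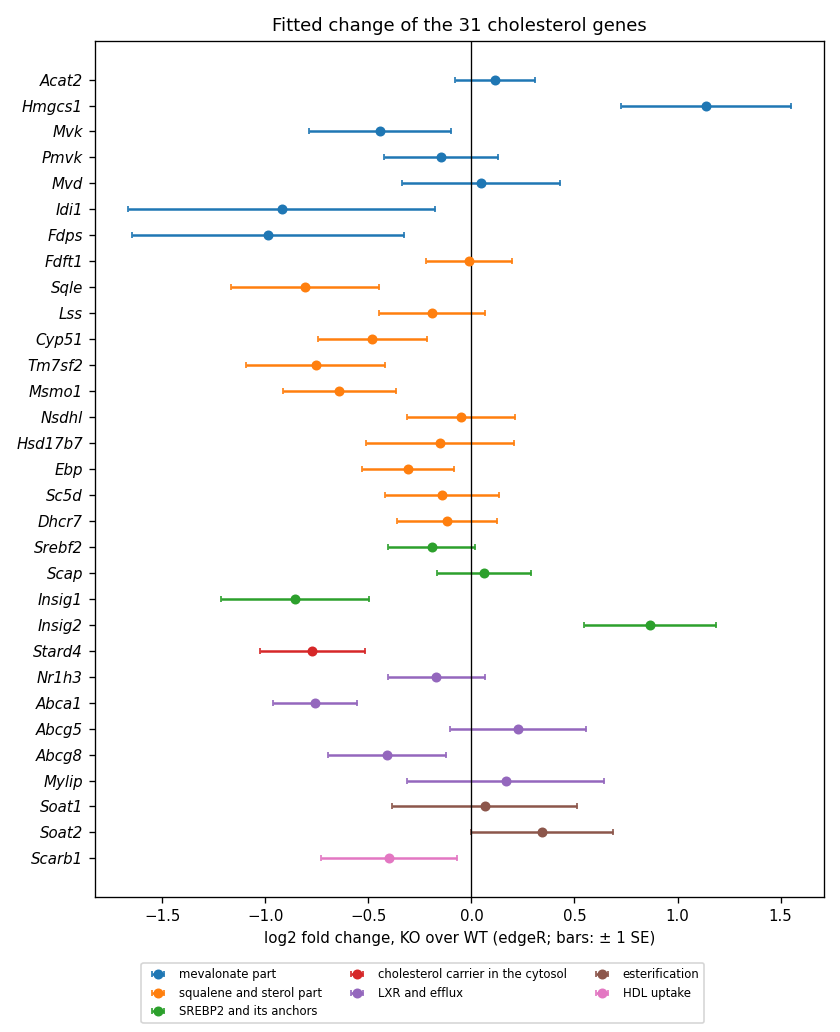
Fitted log2 fold change of each of the 31 members, KO-labelled over WT-labelled libraries, with bars of 1 SE, coloured by role. All 11 genes of the squalene and sterol part lie below 0 with all libraries in the fit (7 without KO replicate 6), while Hmgcs1 at 1.14 and Insig2 at 0.86 stand to the right.

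The mevalonate part of the pathway was uneven. Of its 7 genes 4 were fitted lower and 3 higher, with a median of −0.15. Without KO replicate 6, 3 of 7 were fitted lower, with a median of 0.06, and without KO replicate 5, 6 of 7 were, with a median of −0.36. Without WT replicate 2 the median was −0.24, without WT replicate 3 it was −0.04 and without KO replicate 4 −0.22. Hmgcs1 (ENSMUSG00000093930, mm10 chromosome 13, 119690379 to 119708260), the cytosolic enzyme that joins acetoacetyl-CoA with acetyl-CoA, had 404, 170.1 and 249 CPM in KO replicates 4, 5 and 6, against 90.1, 189 and 95.2 CPM in WT replicates 1, 2 and 3. The highest values were in KO replicates 4 and 6, while WT replicate 2 lay above KO replicate 5, so that the groups overlapped. The log2 fold change was 1.14 (SE 0.41), a 2.20-fold difference, with an unadjusted p of 0.0253 and an edgeR adjusted p of 0.52. The 3 libraries with the largest mitochondrial share, KO replicates 4 and 6 and WT replicate 2, were also the 3 with the most Hmgcs1, in the same order, and the part of that share in the difference was not tested. Without KO replicate 4 the fitted change was 0.75, and without WT replicate 2 it was 1.56.

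Hmgcs1 took 26.6, 10.9 and 19.4% of the summed FPKM of the 18 enzymes in KO replicates 4, 5 and 6, against 5.93, 13.4 and 5.72% in WT replicates 1, 2 and 3. FPKM, the authors' deposited values per length of gene, allow such a comparison between genes. Counted without Hmgcs1, the other 17 enzymes summed to 890.3, 1128 and 794 CPM in the KO-labelled libraries, against 1179, 974 and 1264 CPM in the WT-labelled libraries. With Hmgcs1, the 18 summed to 1294, 1298 and 1043 CPM in the KO-labelled libraries, against 1269, 1163 and 1359.5 CPM in the WT-labelled libraries. The groups overlapped in both sums.

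The next enzymes gave differences that were small or not resolved from 0. Acat2, the cytosolic thiolase that supplies acetoacetyl-CoA, was at 0.11 (SE 0.19) on the log2 scale, and Mvd, mevalonate diphosphate decarboxylase, at 0.05 (SE 0.38). Mvk and Pmvk, the kinases of mevalonate and phosphomevalonate, were at log2 fold changes of −0.44 (SE 0.34) and −0.15 (SE 0.28), with KO replicate 6 lowest of the 6 libraries for both. Acat2 shares 97.7% of 1477 aligned bases with Acat3 and overlaps Tcp1, so its reads may be divided between genes.

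Fdps and Idi1, which form and join the isoprenoid units, had the lowest fitted changes and the weakest data. Fdps, farnesyl diphosphate synthase, had only 14, 37 and 4 counts in the KO-labelled libraries and 19, 46 and 49 in the WT-labelled libraries (log2 fold change −0.99, SE 0.66, edgeR adjusted p = 0.671). Its transcript matches the processed pseudogene Gm3571 at 98.9% over 1062 bases, and Gm3571 was listed with 879 counts over the 6 libraries. It also matches Gm43738, annotated as protein-coding, at 100% over 929 bases, and Gm43738 had 0 counts. Counted together with Gm3571 and Gm5873, another copy, Fdps stood at 13.3, 12.9 and 6.96 CPM in the KO-labelled libraries, against 9.22, 12.5 and 12.9 CPM in the WT-labelled libraries. On that count KO replicate 6 was lowest and the other libraries overlapped, so the fitted change of Fdps alone is uncertain. Reads that match both Fdps and Gm43738 may be missing from these counts, so the level of Fdps is uncertain too. Idi1, isopentenyl diphosphate isomerase, also has pseudogene copies, of up to 100% identity over 684 bases. It had 2.63, 6.62 and 1.12 CPM in the KO-labelled libraries, against 12.5, 2.31 and 5.20 CPM in the WT-labelled libraries, and the fitted change of −0.92 (SE 0.75) was −0.11 without WT replicate 1 and −1.85 without KO replicate 5.

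The squalene and sterol part was fitted lower gene by gene, mostly by small amounts. All 11 genes had a log2 fold change below 0 (median −0.19, range −0.81 to −0.01), where 50.9% of all genes did, and 0 of the 11 passed the edgeR threshold. That count rests on KO replicate 6: without it 7 of 11 were fitted lower, with a median of −0.03, and Fdft1, Nsdhl, Sc5d and Dhcr7 were fitted above 0. It was 9 without WT replicate 3 and 10 without any other single library, with a median of −0.30 without WT replicate 2 and −0.39 without KO replicate 5. Sqle (ENSMUSG00000022351, mm10 chromosome 15, 59315077 to 59331192), squalene epoxidase, a rate-limiting step of sterol synthesis, had 14.1, 18.0 and 7.09 CPM in the KO-labelled libraries, against 29.4, 20.7 and 18.6 CPM in the WT-labelled libraries. No KO-labelled value reached the WT-labelled ones, but KO replicate 5 and WT replicate 3 lay next to each other. The log2 fold change was −0.81 (SE 0.36, unadjusted p = 0.0552, edgeR adjusted p = 0.596), and the groups overlapped with library size alone as scaling. Without KO replicate 6 the fitted change was −0.52, and without KO replicate 5 it was −1.12. The ratio of Hmgcs1 to Sqle in FPKM was 34.6, 11.4 and 42.3 in KO replicates 4, 5 and 6, against 3.70, 11.0 and 6.17 in WT replicates 1, 2 and 3. KO replicate 5 and WT replicate 2 were close in that ratio, which was formed after the values were seen and was not tested.

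Msmo1 (ENSMUSG00000031604, mm10 chromosome 8, 64718139 to 64733792), a methylsterol oxidase, had 54.7, 76.3 and 44.5 CPM in the KO-labelled libraries, against 100.2, 68.7 and 105 CPM in the WT-labelled libraries. KO replicate 5 lay above WT replicate 2, and the other KO-labelled values were below all WT-labelled ones (log2 fold change −0.64, SE 0.27, unadjusted p = 0.0484, edgeR adjusted p = 0.578). Tm7sf2, a sterol reductase, had a similar pattern, with 47.3, 101 and 62.4 CPM in the KO-labelled libraries, against 147, 84.3 and 125 CPM in the WT-labelled libraries (log2 fold change −0.76, SE 0.34, edgeR adjusted p = 0.596). Cyp51, lanosterol demethylase, was at −0.48 (SE 0.27) on the log2 scale, and Ebp, a sterol isomerase, at −0.31 (SE 0.22). Ebp had the highest mean level of the 31 members per length, 83.8 ± 9.90 FPKM in KO-labelled and 107 ± 16.3 FPKM in WT-labelled libraries (SD, n = 3 each).

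The remaining 6 genes of the sterol part lay nearer to 0. Lss, lanosterol synthase, was at −0.19 (SE 0.26), and Fdft1, squalene synthase, at −0.01 (SE 0.21). Nsdhl and Hsd17b7, which act in removing methyl groups from the ring, were at −0.05 (SE 0.26) and −0.15 (SE 0.36). Sc5d, a desaturase, and Dhcr7, a reductase of the closing steps, were at −0.14 (SE 0.28) and −0.12 (SE 0.24). In all of these the difference was smaller than its SE. Fdft1 shares annotated transcript sequence with its neighbour Ctsb, which adds to its uncertainty.

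Low values came most often from a single library. KO replicate 6 held the lowest of the 6 values in 14 of the 21 SREBP2 targets and the highest in 0, whereas KO replicate 5 held the lowest in 0. WT replicates 1 and 3 held the highest value in 8 and 7 of them. Without KO replicate 6 the number of SREBP2 targets fitted lower was 13 of 21 in place of 18, with a median of −0.16. Leaving out KO replicate 5, the library with adipocyte markers, gave 19 of 21 and a median of −0.39. The median was −0.30 without WT replicate 2.

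**Figure D2:**
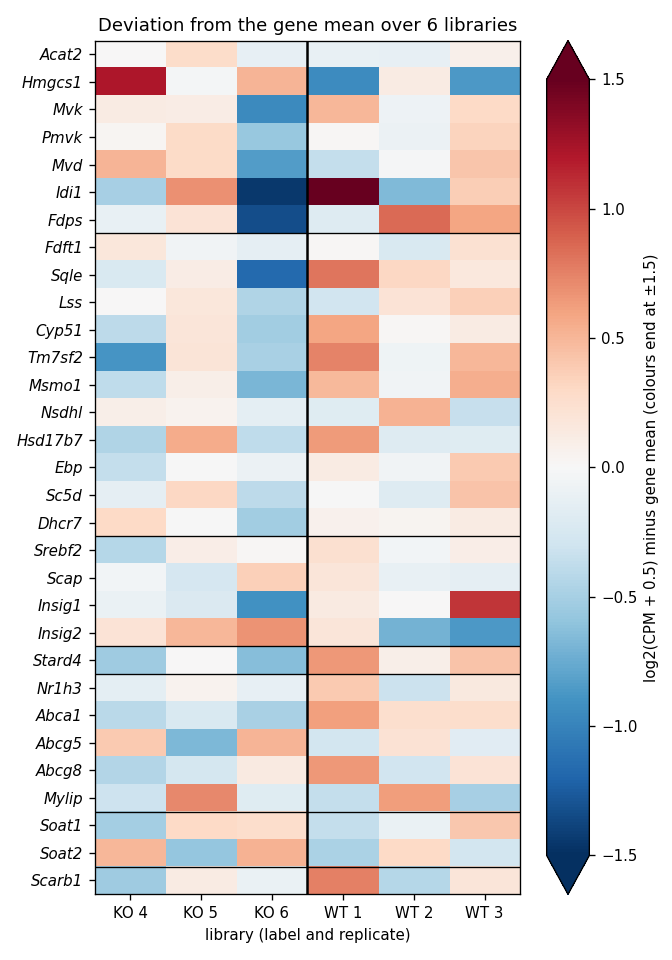
Each row is a member and each column a library, KO-labelled on the left; colour gives log2(CPM + 0.5) minus the gene's mean over the 6 libraries. The blue column of KO replicate 6 runs through most synthesis genes, and Hmgcs1, Insig2 and Abcg5 do not follow it.

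Among the regulators of SREBP2, the INSIG genes were fitted in opposite directions. Both encode membrane proteins that retain SCAP, but Insig1 is itself an SREBP2 target, whereas Insig2 is not driven by SREBP2 and has a liver transcript known to be repressed by insulin. Insig1 (ENSMUSG00000045294, mm10 chromosome 5, 28071363 to 28078662) had 141, 130.0 and 80.0 CPM in KO replicates 4, 5 and 6, against 166, 152 and 317 CPM in WT replicates 1, 2 and 3. All 3 KO-labelled values lay below the WT-labelled ones, and WT replicate 3 stood far above the other 5. Its mean was 117 ± 32.4 CPM in KO-labelled and 212 ± 91.6 CPM in WT-labelled libraries (SD, n = 3 each), with a log2 fold change of −0.86 (SE 0.36, unadjusted p = 0.0441, edgeR adjusted p = 0.569). Without WT replicate 3 the fitted change was −0.47.

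Insig2 (ENSMUSG00000003721, mm10 chromosome 1, 121304353 to 121332589) was fitted higher, with 156, 191 and 216 CPM in the KO-labelled libraries, against 153, 82.0 and 73.8 CPM in the WT-labelled libraries. All 3 KO-labelled values were above the WT-labelled ones, but KO replicate 4 and WT replicate 1 differed little, and with DESeq2-type size factors the groups overlapped. Its mean was 187 ± 30.2 CPM in KO-labelled and 103 ± 43.4 CPM in WT-labelled libraries (SD, n = 3 each), with a log2 fold change of 0.86 (SE 0.32, unadjusted p = 0.0274, edgeR adjusted p = 0.523). The gene-level counts do not separate its transcripts. Within each library the ratio of Insig2 to Insig1 in FPKM was 0.984, 1.31 and 2.40 in KO replicates 4, 5 and 6, against 0.819, 0.481 and 0.207 in WT replicates 1, 2 and 3. This ratio was higher in each KO-labelled library than in any WT-labelled one, with KO replicate 4 and WT replicate 1 closest. That follows from the CPM of both genes, each of which already separated the labels, so the ratio adds no further support. It was formed after both genes' values had been seen and was not tested.

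Srebf2 and Scap differed little between the groups. Srebf2 (ENSMUSG00000022463, mm10 chromosome 15, 82147181 to 82205379), which encodes SREBP2, had 30.7, 44.4 and 42.0 CPM in the KO-labelled libraries, against 49.2, 40.2 and 44.5 CPM in the WT-labelled libraries, overlapping values with a log2 fold change of −0.19 (SE 0.21, edgeR adjusted p = 0.765). Scap, which encodes the escort protein, was at 0.06 (SE 0.23). The protein SREBP2 is controlled by cleavage, which RNA counts do not show.

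Stard4 (ENSMUSG00000024378, mm10 chromosome 18, 33199355 to 33213862), a soluble carrier that moves cholesterol between membranes and is an SREBP2 target, had 36.0, 52.5 and 33.3 CPM in the KO-labelled libraries, against 82.4, 55.4 and 70.3 CPM in the WT-labelled libraries. No KO-labelled value reached the lowest WT-labelled one, although KO replicate 5 came close to WT replicate 2. The log2 fold change was −0.77 (SE 0.25, unadjusted p = 0.0166, edgeR adjusted p = 0.467), and it stayed between −1.01 and −0.63 with any 1 library left out.

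**Figure D3:**
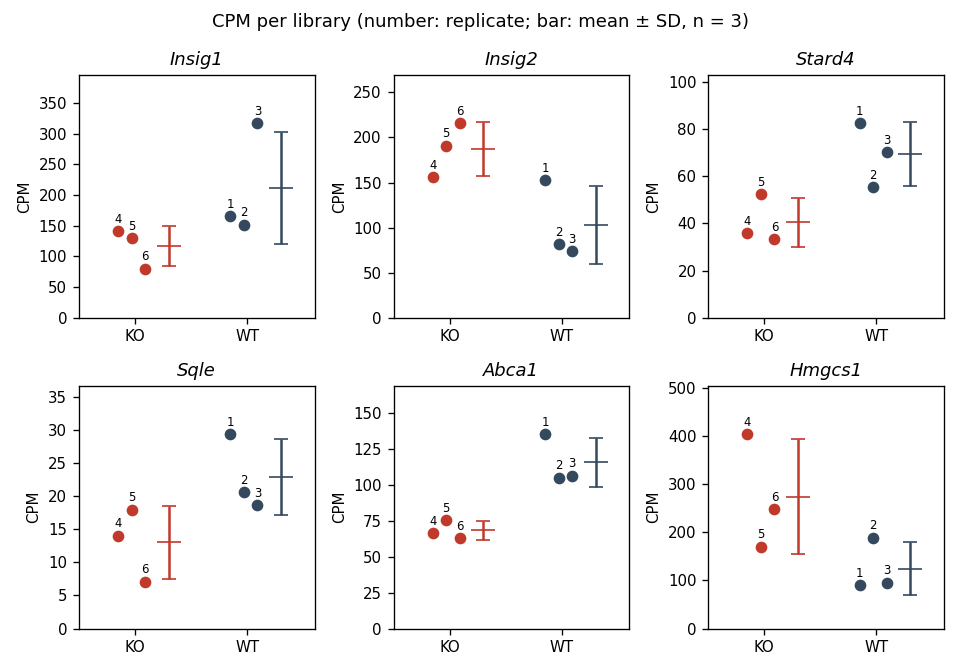
CPM of 6 members in every library (points, numbered by replicate) with the mean ± SD of each group (n = 3), KO-labelled on the left of each panel. Insig1, Stard4, Sqle and Abca1 are lower in all 3 KO-labelled libraries, Insig2 is higher, and Hmgcs1 overlaps.

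The LXR and efflux arm did not move as a block. Of its 5 genes 3 were fitted lower and 2 higher, with a median log2 fold change of −0.17, against −0.19 for the 21 SREBP2 targets and −0.01 for all genes. The 2 arms thus had near-equal medians, both slightly below that of all genes. The efflux median rests on few genes and was −0.01 without WT replicate 1, −0.35 without WT replicate 2 and −0.30 without KO replicate 5.

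Abca1 had the smallest p of all 31 members. The gene (ENSMUSG00000015243, mm10 chromosome 4, 53030787 to 53159895) encodes the transporter that loads cholesterol and phospholipid onto apolipoprotein A-I and so starts HDL. It had 66.7, 75.7 and 63.0 CPM in KO replicates 4, 5 and 6, against 136, 105 and 107 CPM in WT replicates 1, 2 and 3. The groups lay well apart, with the highest KO-labelled value below the lowest WT-labelled one by more than the spread within the KO-labelled group. Its mean was 68.4 ± 6.53 CPM in KO-labelled and 116 ± 17.1 CPM in WT-labelled libraries (SD, n = 3 each), a log2 fold change of −0.76 (SE 0.20) with an unadjusted p of 0.00615 and an edgeR adjusted p of 0.4. In DESeq2 the log2 fold change was −0.78 with an adjusted p of 0.0469; over the alternatives the adjusted p lay between 0.0469 and 1.00, and the fitted change between −0.84 and −0.61. Macrophages also express Abca1, and the 6 Kupffer cell markers were all fitted higher in the KO-labelled libraries, with a median of 0.69, as were all 5 monocyte and macrophage markers, with a median of 0.53; their part in the Abca1 difference was not tested.

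Abcg5 and Abcg8 form 1 heterodimer that secretes sterol into bile, yet they were fitted in opposite directions. Abcg5 (ENSMUSG00000040505, mm10 chromosome 17, 84658234 to 84683011) had 126, 59.9 and 137 CPM in the KO-labelled libraries, against 79.5, 111 and 85.2 CPM in the WT-labelled libraries (log2 fold change 0.22, SE 0.33, edgeR adjusted p = 0.826). Abcg8 (ENSMUSG00000024254, mm10 chromosome 17, 84676302 to 84700333) had 46.4, 52.6 and 69.2 CPM in the KO-labelled libraries, against 98.9, 51.5 and 72.8 CPM in the WT-labelled libraries (log2 fold change −0.41, SE 0.29, edgeR adjusted p = 0.678). Both genes overlapped between groups. Abcg5 was fitted at 0.007 without KO replicate 6 and at 0.51 without KO replicate 5, and Abcg8 at −0.15 without WT replicate 1 and −0.62 without WT replicate 2. The ratio of Abcg5 to Abcg8 in FPKM was 3.75, 1.58 and 2.74 in KO replicates 4, 5 and 6, against 1.11, 2.99 and 1.62 in WT replicates 1, 2 and 3. The 3 libraries with the highest ratio were the 3 with the largest mitochondrial share, from both groups. The annotated genes overlap on opposite strands, and without a stated strand setting reads in the overlap cannot be told apart.

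**Figure D4:**
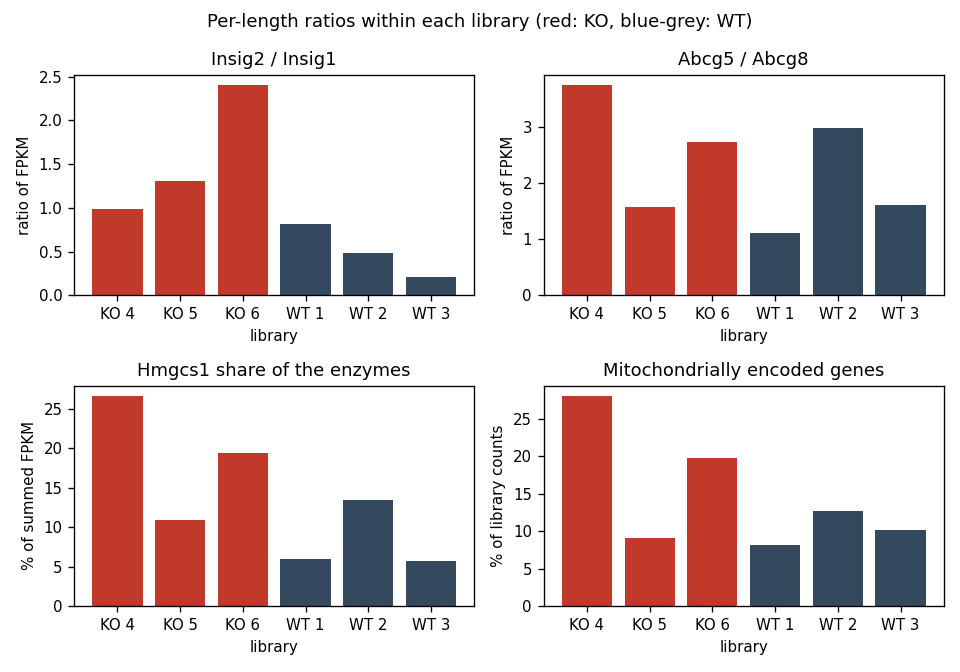
Bars give, for each library, the FPKM ratio of Insig2 to Insig1, that of Abcg5 to Abcg8, the share of Hmgcs1 in the summed FPKM of the 18 enzymes, and the share of counts from mitochondrially encoded genes. The Insig ratio is higher in each KO-labelled library than in any WT-labelled one, which follows from the separate values of both genes. The Abcg ratio and the Hmgcs1 share are high in KO replicates 4 and 6 and WT replicate 2, as is the mitochondrial share.

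Nr1h3 (ENSMUSG00000002108, mm10 chromosome 2, 91184061 to 91202834), which encodes LXR alpha, the main liver form of the receptor, had 100.1, 114 and 102 CPM in the KO-labelled libraries, against 145, 88.0 and 122 CPM in the WT-labelled libraries. WT replicates 1 and 3 were above the KO-labelled libraries and WT replicate 2 below them (log2 fold change −0.17, SE 0.24, edgeR adjusted p = 0.815). Mylip, an LXR-induced ubiquitin ligase that removes lipoprotein receptors from the surface, was scarce, with 2.72, 6.07 and 3.02 CPM in the KO-labelled libraries, against 2.62, 5.70 and 2.33 CPM in the WT-labelled libraries (log2 fold change 0.17, SE 0.48). Its direction changed with the library left out, between −0.30 and 0.68.

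Esterification and HDL uptake genes did not separate the groups. Soat2, the acyltransferase that makes cholesteryl ester in hepatocytes, had 54.3, 25.5 and 55.3 CPM in the KO-labelled libraries, against 27.5, 47.3 and 31.6 CPM in the WT-labelled libraries (log2 fold change 0.34, SE 0.35, edgeR adjusted p = 0.748). Its 3 highest values were those of KO replicates 6 and 4 and WT replicate 2. Soat1, the form of macrophages and many other cells, was sparse, as 13, 53 and 36 counts in the KO-labelled libraries and 22, 27 and 55 in the WT-labelled libraries were its whole signal (log2 fold change 0.06, SE 0.45). Scarb1 (ENSMUSG00000037936, mm10 chromosome 5, 125277087 to 125341094), the receptor for selective uptake of HDL cholesterol, had 67.7, 107 and 91.9 CPM in the KO-labelled libraries, against 167, 73.2 and 112 CPM in the WT-labelled libraries (log2 fold change −0.40, SE 0.33, edgeR adjusted p = 0.708). WT replicate 1 was far above the others, and without it the fitted change was −0.06.

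Per length, the order of levels differed at the top. Ebp ranked first in both groups. In KO-labelled libraries Hmgcs1 at 58.7 ± 25.8 and Insig2 at 52.9 ± 8.57 FPKM came next, a pair that does not differ beyond its spread, whereas in WT-labelled libraries Insig1 at 68.6 ± 28.8 and Sc5d at 50.9 ± 11.2 FPKM did (SD, n = 3 each). Hmgcs1 and Insig1 held rank 2 and rank 7 in KO-labelled libraries, against rank 7 and rank 2 in WT-labelled libraries. These ranks are not resolved, as Insig1 at 37.1 ± 10.2 FPKM stood beside Abcg5 at 39.0 ± 15.4 FPKM in KO-labelled libraries. In WT-labelled libraries Insig1 and Sc5d did not differ beyond their spread. Insig1 had 102 FPKM in WT replicate 3, against 55.6 and 48.6 FPKM in WT replicates 1 and 2. Soat1 and Fdps stood at the bottom in both groups, with the reservation on Fdps copies above.

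Other genes of cholesterol handling were read from 5 further lists, 52 genes in all. None passed the edgeR threshold; at an unadjusted p under 0.05 there were 1 lower and 1 higher, and 35 of 52 were fitted lower (67.3%, against 50.9% of all genes). The count was 24 of 52 (46.2%) without the pair of KO replicate 4 and WT replicate 1. Of 12 genes for SREBP processing and sterol-regulated degradation 9 were fitted lower (median −0.24), with Syvn1, a ubiquitin ligase of the endoplasmic reticulum, at −0.48 (SE 0.24) and Rnf139 at −0.78 (SE 0.50). Of 12 genes of the isoprenoid branch 9 were fitted lower (median −0.16), with Pdss2 at −0.31 (SE 0.27) and Fntb at 0.35 (SE 0.32). Of 12 genes of intracellular cholesterol transport 7 were fitted lower (median −0.03), with Gramd1b at 0.78 (SE 0.42) and Osbpl9 at −0.41 (SE 0.26).

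Lipoprotein uptake and biliary lipid held the 2 genes with the smallest p of these lists. Lrp1, a large receptor for lipoprotein remnants, had 294, 427 and 315 CPM in the KO-labelled libraries, against 515, 659 and 568 CPM in the WT-labelled libraries, all KO-labelled values being below the WT-labelled ones (log2 fold change −0.75, SE 0.24, edgeR adjusted p = 0.46). In its list 6 of 7 genes were fitted lower (median −0.32), with Sort1 at −0.63 (SE 0.28). Abcb4, the canalicular phospholipid transporter that works beside Abcg5 and Abcg8, had 377, 314 and 435 CPM in the KO-labelled libraries, against 233, 189 and 155 CPM in the WT-labelled libraries, all KO-labelled values being above (log2 fold change 0.96, SE 0.25, edgeR adjusted p = 0.4; DESeq2 called it higher). Its list of LXR targets, HDL and biliary lipid genes was split, with 4 of 9 fitted lower (median 0.13, or −0.0756 over the 8 genes without Abcb4), among them Atp8b1 at −0.39 (SE 0.19).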

How the data were processed

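Whole-liver RNA was sequenced in 6 libraries, grouped by sample title. Per the submitters' processing notes, the tools were DESeq2 1.16.1, featureCounts 1.5.0-p3 and HISAT2 2.0.5, with build mm10; roles and strand setting are not given in the sources used here. Whole read counts per gene are in the authors' deposited table; the authors' deposited FPKM table is scaled to a library size equal to DESeq2 size factors rather than column totals, tested on the files (ratio 1 in each library). The test was that of edgeR 4.0.16 under R 4.3.3 (TMM, filterByExpr, quasi-likelihood test, Benjamini-Hochberg adjustment over all 13693 genes at 0.05). Each SE is the fitted log2 change divided by √F. The biological coefficient of variation was 34.7%. DESeq2 1.42.0 and limma 3.58.1 (voom, and log2 of FPKM with pseudocounts of 1 and 0.1), other scalings and filters, and each library left out were alternatives; scripts were tested on simulated data. Members, lists and the naming rule (values per library for members whose groups did not overlap, the 2 smallest p per role, Srebf2, Nr1h3 and Trem2) were chosen with earlier results of these data known; values of Abcg5, Idi1, Mylip and Tm7sf2 per library, and the ratios, were added after their values were seen. Near-identical copies were sought with BLAST (at least 90% identity over 200 bases) in GENCODE vM21 transcripts; 25 of 31 members had none. No 2 libraries agreed within sampling noise (lowest chi-square per degree of freedom 42.3). Whether every library is a separate mouse is not stated, so p-values may measure technical spread.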

Additional observations from a re-analysis of the deposited data

How the results depend on the processing

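No paired analysis was possible because the groups share no replicate number. The number of genes called over the whole table was 2; it was 1 with library size alone, 61 without a filter on low counts, 176 with DESeq2, 1 with limma-voom, between 0 and 1 with 1 library left out and 0 without the pair of KO replicate 4 and WT replicate 1. The number of members called was 0 throughout, except 1 (Abca1) with DESeq2. With 1 library left out, the median of the LXR and efflux members ranged from −0.35 to −0.00566, that of the SREBP2 targets from −0.39 to −0.16, the SREBP2 targets fitted lower from 13 to 19, and the members whose groups do not overlap from 5 to 16. Without that pair the efflux median was 0.00215 and 8 members did not overlap. The 5 members of the main fit that did not overlap included all 4 found under each alternative scaling or tool with a count of 4.

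The squalene and sterol members fitted lower were 11, between 7 and 10 with 1 library left out, with medians between −0.39 and −0.0332; these were set out after seeing the data.

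Many of the 31 members changed sign under at least 1 alternative. They include some of the 22 fitted lower in the main fit, among them Idi1 and Scarb1, whose fitted changes were −0.92 and −0.40. Mvd was at −0.0557 with limma-voom, −0.0455 and −0.0644 with FPKM pseudocounts of 1 and 0.1; Fdft1 was at 0.00055 with limma-voom. Without that pair, Mvd was at −0.39, Hsd17b7 at 0.36, Idi1 at 0.0528, Nr1h3 at 0.0395, Scarb1 at 0.10 and Srebf2 at 0.0282. With 1 library left out, the range was −0.0123 to 0.20 for Acat2, −0.32 to 0.0712 for Dhcr7, −0.13 to 0.0809 for Fdft1, −0.57 to 0.18 for Hsd17b7, −0.22 to 0.36 for Mvd, −0.30 to 0.68 for Mylip, −0.35 to 0.00202 for Nr1h3, −0.24 to 0.26 for Nsdhl, −0.36 to 0.0631 for Pmvk, −0.36 to 0.0238 for Sc5d, −0.13 to 0.19 for Scap and −0.13 to 0.35 for Soat1. The cause was not tested. All other members kept their direction under every alternative run. With 3 libraries a group, the SE of most members was 0.2 to 0.4 on the log2 scale, so differences of that size were not detectable. Larger fitted differences, such as 1.14 for Hmgcs1 and −0.76 for Abca1, did not pass the edgeR threshold either.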
